A study of Mus musculus with 6 samples.

Results

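Transcripts of the interleukin 1 (IL-1) and interleukin 18 (IL-18) system were measured in macrophages of malignant pleural effusions (MPEs) from mice labelled IL-10-/- and from WT mice. The 9 genes were taken by symbol from the deposited table of 23302 genes. They encode the cytokines Il1a, Il1b and Il18, the inhibitors Il1rn, Il1r2 and Il18bp, and the receptor chains Il1r1, Il1rap and Il18rap. Each symbol had 1 entry. The 6 libraries were 3 of IL-10-/- mice and 3 of WT mice, all of strain C57BL/6, and by the study's supplement matched for sex, weight and age (6 to 8 weeks). All mice had received MC38 cells, a mouse colon adenocarcinoma line, into the pleural cavity, and effusions were collected 10 days later. Mononuclear cells were then isolated on a Ficoll gradient, macrophages with F4/80 microbeads, and poly(A) RNA was sequenced as paired ends. The supplement names Jackson Laboratory as the source of the IL-10-/- mice and Vital River as that of the WT mice, so that supplier and genotype cannot be told apart. By the methods, the purity of the isolated macrophages was checked by flow cytometry and the cells went into culture in DMEM with serum for later use. Whether RNA was taken before or after culture, and whether a library held 1 mouse or a pool, was not stated there or in the labels. The p-values therefore measure only the spread between these libraries, which may be technical.

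IL-1α and IL-1β signal through a receptor made of IL1R1 and the accessory chain IL1RAP, which recruits MyD88 and activates NF-kB. The pathway is restrained by the IL-1 receptor antagonist, which occupies IL1R1 without signaling, and by IL1R2, a decoy receptor that binds IL-1 and lacks a signaling domain. IL-18 signals in a similar way through IL18R1 and IL18RAP, mostly in T cells and NK cells, and is neutralised in fluid by IL-18 binding protein. IL-1β and IL-18 are made as precursors that caspase-1 cleaves, so that a transcript level does not give the amount of active cytokine. Macrophages are a main source of both cytokines, and IL-10 is known to limit the production of IL-1β in activated macrophages.

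The unit is FPKM (fragments counted per kilobase of a gene's transcript, scaled to the size of the library), so that levels can be compared between genes per length. Il10 itself was at 59.2, 62.0 and 42.4 FPKM in the 3 libraries with the label IL-10-/-, against 6.43, 33.3 and 7.33 FPKM in the WT libraries (log2 fold change 2.09, limma adjusted p = 0.14). The transcript of the targeted gene was thus present in all 6 libraries and higher in those with the label IL-10-/-. A gene-level value does not show whether it is complete. WT replicate 2 stood apart from the other WT libraries in Il10. The 9 macrophage markers summed to 11079 to 13955 FPKM in the IL-10-/- libraries and to 7913 to 9789 FPKM in the WT libraries, and none of them had an adjusted p under 0.05. Lyz2, a lysozyme gene, made up most of the sum in every library but WT replicate 3, where it was at 3612 FPKM. The other 8 markers summed to 4096, 4703 and 4365 FPKM in the IL-10-/- libraries, against 3506, 4329 and 4581 FPKM in the WT libraries, which overlap. The 4 monocyte markers summed to 6319 to 9561 FPKM in the IL-10-/- libraries and to 3144 to 3498 FPKM in the WT libraries, and 1 of the 4, Ly6c2, rose. The 13 neutrophil markers summed to 541 to 1203 FPKM in the IL-10-/- libraries and to 2949 to 4657 FPKM in the WT libraries, and 6 of the 11 that could be tested fell (Csf3r, Retnlg, Lcn2, S100a8, S100a9 and Cxcr2). S100a8 and S100a9 made up most of the neutrophil sum in every library, and the paper reports S100A9 RNA and protein in the isolated macrophages. The neutrophil markers outside the 6 that fell are named after their values were seen. Ly6g, a surface marker of mature neutrophils, was at 0.664 to 0.802 FPKM in the IL-10-/- libraries and at 1.38 to 3.24 FPKM in the WT libraries (limma adjusted p = 0.15), and Mmp8 overlapped between the groups. The granule genes Ngp, Ltf and Camp were at 28.2, 14.2 and 18 FPKM in WT replicate 2. In any other library they were at no more than 5.78 FPKM. Their log2 fold changes were -0.45, 0.30 and 0.27 in that order. Elane and Mpo, typical of neutrophil precursors, were at or under 2.13 FPKM in all 6 libraries. Of 10 genes that respond to handling, 1 fell (Hspa1a), 5 had an unadjusted p under 0.05 and all 10 had a log2 fold change below 0. Their median log2 fold change was -0.70, against -0.00 for all genes tested. They summed to 1827 to 3476 FPKM in the IL-10-/- libraries and to 3277 to 4005 FPKM in the WT libraries. No marker passed in the lists of B cells (sums of 9.22 to 27.2 FPKM in IL-10-/-, 31.9 to 40.5 FPKM in WT), dendritic cells (10.4 to 12.5 FPKM in IL-10-/-, 15.7 to 25.2 FPKM in WT), mast cells and basophils (1.39 to 5.41 FPKM in IL-10-/-, 2.40 to 8.52 FPKM in WT), mesothelial cells and fibroblasts (3.91 to 8.80 FPKM in IL-10-/-, 6.03 to 14.9 FPKM in WT) or epithelial tumour cells (1.76 to 8.64 FPKM in IL-10-/-, 1.13 to 4.22 FPKM in WT). At an unadjusted p under 0.05 these lists had 2, 2, 0, 1 and 0 genes in that order. Over all genes tested, 10.8% had an unadjusted p under 0.05, 0.608% rose and 0.482% fell. Fewer cells of a type and less RNA per cell cannot be told apart in such bulk libraries.

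Il1b was the most abundant transcript of the system in both groups, and the decoy receptor gene Il1r2 came next. The order by mean level was Il1b, Il1r2, Il18bp, Il18, Il1rn, Il1a, Il18rap, Il1rap and Il1r1 in the IL-10-/- libraries. In the WT libraries Il1a and Il1rn came before Il18. Il1b averaged 471 ± 62.6 FPKM in the IL-10-/- libraries and 668 ± 305 FPKM in the WT libraries (SD, n = 3 each), and over the 6 libraries its mean lay above 98.6% of all genes in the table. Il1r2 averaged 206 ± 74.0 FPKM in the IL-10-/- libraries and 382 ± 63.2 FPKM in the WT libraries (SD, n = 3 each). In the IL-10-/- libraries the ranges of Il1r2 and Il18bp overlapped, and those of Il18, Il1rn, Il1a and Il18rap overlapped from each to the next. In the WT libraries this held from Il18bp to Il1a to Il1rn and from Il18 to Il18rap to Il1rap. The ranges of all other neighbours in the order were apart. Overlap of ranges does not use the pairing within a library. Among the overlapping neighbours, Il1r2 exceeded Il18bp in each of the 3 IL-10-/- libraries. Il18 exceeded Il18rap, and Il18rap exceeded Il1rap, in each of the 3 WT libraries. The other overlapping neighbours did not keep their order in every library. Il1r1, the signaling receptor of IL-1, was at 0.386 ± 0.126 FPKM in the IL-10-/- libraries and 0.384 ± 0.102 FPKM in the WT libraries (SD, n = 3 each). It was the lowest member in every library, and Il1r2 stood 372 to 808 times above it in the IL-10-/- libraries and 744 to 1562 times above it in the WT libraries.

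**Figure D1:**
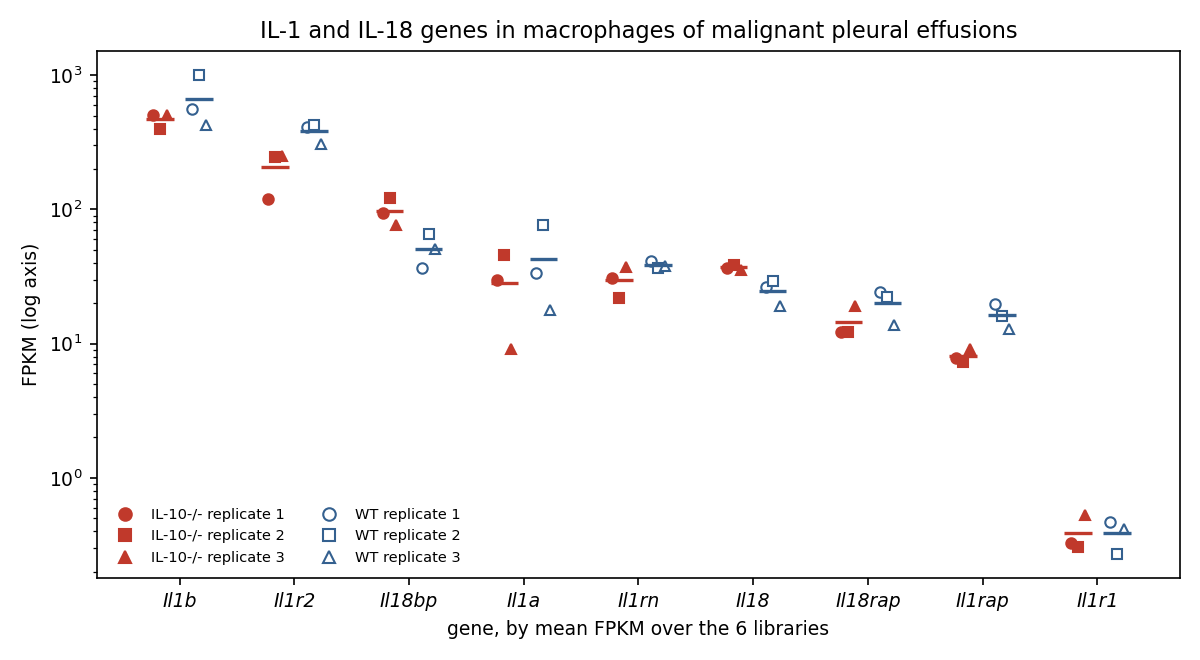
FPKM of the 9 genes in each library, on a log axis, with IL-10-/- libraries as filled red and WT libraries as open blue symbols, 1 symbol shape per replicate number and a line at each group mean. Il1b and Il1r2 lie at the top and Il1r1, under 1 FPKM in all 6 libraries, at the bottom, and the 2 groups are apart for Il1r2, Il1rap, Il18 and Il18bp.

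None of these genes passed the test for a difference between the groups. The two-sided limma test on log2(FPKM + 1) covered the 11838 genes that reached 1 FPKM in 3 or more libraries, and p-values were adjusted over all of them by Benjamini-Hochberg. This filter kept 8 of the 9 genes and left out Il1r1. Fold changes are IL-10-/- over WT of FPKM + 1 in log2 units, and those of weakly expressed genes are therefore too small. Of the 8 genes, 0 had an adjusted p under 0.05, where 1.09% of all genes tested did (0.608% higher and 0.482% lower in IL-10-/-). At an unadjusted p under 0.05 there were 4 of 8, against 10.8% of all genes tested. At the thresholds named in the study's methods, a fold change of 2 and P of 0.05, there were 0 of 8, against 2.18% of all genes tested, with folds taken of FPKM + 1. With the fold taken as the ratio of mean FPKM, a choice made after seeing the data, there was 1 of 8, Il1rap, against 3.44% of all genes tested. The 3 libraries of one group lay apart from the 3 of the other for 4 of the 8 genes, where this held for 15.4% of all genes tested. Il1r2 and Il1rap lay below WT in IL-10-/- (7.59% of all genes tested did), and Il18 and Il18bp lay above WT (7.8% did). The median log2 fold change of the 8 genes was -0.43, and that of all genes tested -0.00.

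**Figure D2:**
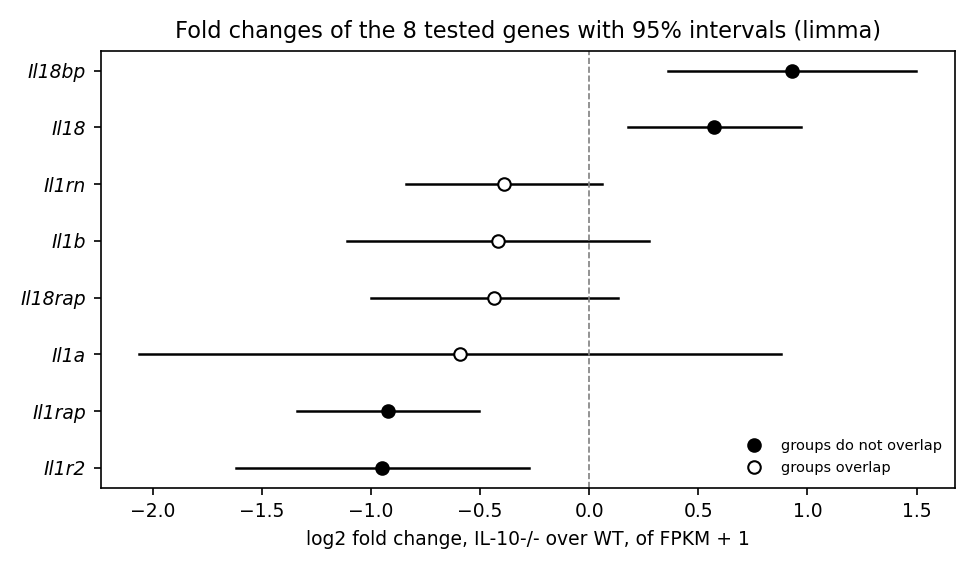
Log2 fold changes of the 8 tested genes, IL-10-/- over WT, of FPKM + 1 (points) with 95% intervals from limma (lines), filled where the libraries of the 2 groups do not overlap. The intervals of Il1r2, Il1rap, Il18 and Il18bp do not reach 0, but none of the 8 genes had an adjusted p under 0.05.

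Among the IL-1 cytokines, Il1b did not separate the groups. Il1b, which encodes the secreted IL-1β, spans 129364570 to 129371139 of chromosome 2 (build GRCm38, minus strand) and has a principal transcript of 7 exons. It was at 508, 399 and 506 FPKM in the IL-10-/- libraries, against 563, 1011 and 429 FPKM in the WT libraries. WT replicate 2 was the highest by far, and the other 5 libraries lay within 399 to 563 FPKM with the groups mixed. The log2 fold change was -0.42 (standard error 0.30, 95% interval -1.11 to 0.27, limma adjusted p = 0.73), and without WT replicate 2 it was -0.07 (adjusted p = 0.96). Il1a, which encodes IL-1α, a form that is active also as a precursor and can stay with the cell, lies 54.6 kb from Il1b on the same strand (129299610 to 129309972, 7 exons). It was at 30.0, 46.1 and 9.06 FPKM in the IL-10-/- libraries, against 33.4, 77.0 and 17.7 FPKM in the WT libraries. The spread within each group was larger than the difference between them, with the highest library 8.50 times above the lowest. The log2 fold change was -0.59 (standard error 0.64, 95% interval -2.06 to 0.88, limma adjusted p = 0.85), and without IL-10-/- replicate 3 it was 0.051. Il1b exceeded Il1a in every library, by 8.65 to 55.8 times in the IL-10-/- libraries and by 13.1 to 24.2 times in the WT libraries. The noncoding genes Gm14023 and Il1bos, which overlap Il1a and Il1b, were at no more than 4.63 and 1.76 FPKM, and the use of strand in counting was not given in the sources used here.

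Il1rn, the gene of the IL-1 receptor antagonist, was at 30.9, 21.8 and 37.0 FPKM in the IL-10-/- libraries, against 41.5, 36.6 and 37.8 FPKM in the WT libraries. IL-10-/- replicate 3 reached the WT range and the other IL-10-/- libraries lay below it. Its log2 fold change was -0.39 (standard error 0.19, 95% interval -0.84 to 0.06, limma adjusted p = 0.55). Il1rn lies on the plus strand of chromosome 2 (24336853 to 24351494) and has 6 annotated transcripts, and secreted and intracellular forms of the antagonist are known. A value per gene does not separate these forms.

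The decoy receptor gene Il1r2 and the accessory chain gene Il1rap both lay lower in every IL-10-/- library than in any WT library. Il1r2 lies on the plus strand of chromosome 1 (40074079 to 40125231, 9 exons) in a cluster of receptor genes that spans 478 kb to the end of Il18rap, itself 90.5 Mb away from Il10. It was at 121, 245 and 252 FPKM in the IL-10-/- libraries, against 413, 423 and 309 FPKM in the WT libraries. IL-10-/- replicate 1 was the lowest. The log2 fold change was -0.95 (standard error 0.29, 95% interval -1.62 to -0.27), with p = 0.012 and a limma adjusted p of 0.24, and the exact two-sided permutation test gave p = 0.1, the smallest that 3 against 3 allow. Without IL-10-/- replicate 1 the log2 fold change was -0.60. Il1rap, whose product also serves the receptors of IL-33 and IL-36, lies on the plus strand of chromosome 16 (26581704 to 26730117, 11 exons). It was at 7.77, 7.27 and 9.14 FPKM in the IL-10-/- libraries, against 19.9, 16.2 and 13.0 FPKM in the WT libraries. The IL-10-/- libraries were close together and all WT libraries lay above them. The means were 8.06 ± 0.965 FPKM in the IL-10-/- libraries and 16.3 ± 3.46 FPKM in the WT libraries (SD, n = 3 each), 2.03 times higher in WT, and in log2 units of FPKM + 1 the fold change was -0.92 (standard error 0.18, 95% interval -1.34 to -0.51). This was the smallest p of the 8 genes (p = 9.0e-04 from limma, and 0.1 in the exact permutation test), and the adjusted p was 0.067. It ranged from 0.016 with array weights, where the libraries are weighted by their fit, to 0.27 without IL-10-/- replicate 2, and was under 0.05 in 1 of 15 alternative fits. Neutrophils carry much Il1r2, and the summed neutrophil markers given above, mostly S100a8 and S100a9, were lower in the same libraries. By replicate the sum was 905, 541 and 1203 FPKM in IL-10-/- and 2949, 4657 and 3540 FPKM in WT. In neither group did it keep the order of Il1r2 over the replicates. The part of neutrophils in the values of Il1r2 and Il1rap was not tested. Gm37347, which overlaps Il1r2 on the same strand, was at 1.67 to 3.25 FPKM in the IL-10-/- libraries and at 4.61 to 8.78 FPKM in the WT libraries.

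Promoters were read from RefSeq (GRCm38.p6) for all 9 genes, as 250 bases before to 50 bases after a start site, and are shown for the 4 genes whose groups were apart, on which the results turn. Both strands were searched for the ISRE of interferon response factors (GAAA, any 2 bases, GAAA), the GAS element TTCNNNGAA of STAT proteins, the AP-1 site TGANTCA and the NF-kB site. Of the 32851 promoters of the table, 3.44% held the ISRE letters, 8.3% GAS, 7.81% AP-1 and 8.46% NF-kB. Il1rap held 1 ISRE match, at 20 bases after the start site, and Il1r2 held 1 GAS match, at position -111, whose pattern reads the same on both strands. Elsewhere there was an AP-1 match in Il1a at -12 and in 1 start of Il1rn at -141, and an NF-kB match in 1 start of Il1r1 at -232, with none in Il1b or Il18rap. These matches are in capitals in the sequences of Il1r2 (plus strand, chr1:40085843-40086142) and Il1rap (plus strand, chr16:26581455-26581754), printed 5′ to 3′. A match is a description of the letters and not a binding site.
Il1r2: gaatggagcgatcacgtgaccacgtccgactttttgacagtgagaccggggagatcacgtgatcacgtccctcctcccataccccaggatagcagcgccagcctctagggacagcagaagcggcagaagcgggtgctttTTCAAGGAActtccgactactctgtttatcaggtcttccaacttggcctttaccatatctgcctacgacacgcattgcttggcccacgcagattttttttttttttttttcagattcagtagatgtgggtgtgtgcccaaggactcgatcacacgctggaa
Il1rap: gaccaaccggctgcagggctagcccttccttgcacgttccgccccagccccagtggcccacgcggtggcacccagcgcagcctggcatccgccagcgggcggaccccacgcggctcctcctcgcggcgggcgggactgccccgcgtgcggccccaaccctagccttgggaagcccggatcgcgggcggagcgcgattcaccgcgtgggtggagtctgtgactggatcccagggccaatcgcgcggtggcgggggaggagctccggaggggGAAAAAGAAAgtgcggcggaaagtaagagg

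The signaling receptor gene Il1r1 was at 0.324, 0.304 and 0.531 FPKM in the IL-10-/- libraries, against 0.467, 0.271 and 0.415 FPKM in the WT libraries. The groups overlapped fully, and the difference on the log2(FPKM + 1) scale was 0.00 (exact two-sided permutation test, p = 1). At this level counting error is largest. Mesothelial cells and fibroblasts are known to carry IL1R1. The highest of their 7 markers, the collagen gene Col3a1, was at 1.55 to 4.24 FPKM in the IL-10-/- libraries and at 3.09 to 7.96 FPKM in the WT libraries (log2 fold change -0.80, limma adjusted p = 0.46). Col3a1, Col1a1 and Msln lay above Il1r1 in every library, and Wt1 and Pdgfra lay below it in every library. Krt19 and Upk3b lay above it in some libraries and below it in others. All but Col3a1 and Col1a1 were named after their values were seen. The part of these cells in the level of Il1r1 was not tested.

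On the IL-18 side, both the cytokine gene and that of its binding protein lay above WT in every IL-10-/- library. Il18 lies on the plus strand of chromosome 9 (50575273 to 50581837 in the deposited table). It was at 36.6, 38.7 and 35.7 FPKM in the IL-10-/- libraries, against 26.4, 29.2 and 19.1 FPKM in the WT libraries. The IL-10-/- libraries differed little among themselves. In log2 units the fold change was 0.57 (standard error 0.17, 95% interval 0.18 to 0.97), with p = 0.1 in the exact permutation test, p = 0.010 and a limma adjusted p of 0.23. Il18bp, which encodes a secreted protein that binds IL-18 with high affinity and is known to be induced by interferon gamma, lies on the minus strand of chromosome 7 (102015079 to 102018155 in the deposited table). It was at 93.7, 121 and 76.1 FPKM in the IL-10-/- libraries, against 36.3, 65.7 and 50.9 FPKM in the WT libraries. IL-10-/- replicate 3 and WT replicate 2 were nearest to each other. The means were 97.0 ± 22.7 FPKM in the IL-10-/- libraries and 51.0 ± 14.7 FPKM in the WT libraries (SD, n = 3 each), a ratio of means of 1.90. The fold change was 0.93 in log2 units (standard error 0.25, 95% interval 0.36 to 1.50), with p = 0.1 in the exact permutation test, p = 0.0054 and a limma adjusted p of 0.16. Over 15 alternative fits the adjusted p ranged from 0.042 with array weights to 0.50 without IL-10-/- replicate 2. The summed monocyte markers and Lyz2 were higher in the same libraries, while the other macrophage markers overlapped as given above, and their part in the values of Il18 and Il18bp was not tested. In the GENCODE M21 models of the same build Il18bp overlaps Numa1, which was at 12.3 to 16.9 FPKM in the IL-10-/- libraries and at 10.7 to 15.4 FPKM in the WT libraries, but the deposited coordinates of these genes do not overlap. In these models Il18 overlaps Bco2 and Tex12, at no more than 2.49 and 0.348 FPKM, again without overlap in the deposited coordinates. The deposited Il18 starts at 50575273, inside a longer GENCODE M21 span that starts at 50554827, near the promoter read here. The promoters of Il18 (plus strand, chr9:50554450-50554749) and Il18bp (minus strand, chr7:102018183-102018482) held no match to any of the 4 motifs in this window.
Il18: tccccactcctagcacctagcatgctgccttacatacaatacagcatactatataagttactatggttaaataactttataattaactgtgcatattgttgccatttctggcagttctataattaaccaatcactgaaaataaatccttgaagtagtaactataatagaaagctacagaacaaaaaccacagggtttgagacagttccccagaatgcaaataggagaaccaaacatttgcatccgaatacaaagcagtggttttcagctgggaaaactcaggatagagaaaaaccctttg
Il18bp: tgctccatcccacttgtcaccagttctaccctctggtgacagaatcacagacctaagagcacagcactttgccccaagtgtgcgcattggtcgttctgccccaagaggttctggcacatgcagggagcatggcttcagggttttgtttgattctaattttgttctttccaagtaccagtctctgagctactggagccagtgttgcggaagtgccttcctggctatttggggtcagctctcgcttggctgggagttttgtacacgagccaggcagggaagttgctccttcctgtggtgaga

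Il18rap, the accessory chain gene of the IL-18 receptor, was at 12.3, 12.3 and 18.9 FPKM in the IL-10-/- libraries, against 24.2, 22.2 and 13.9 FPKM in the WT libraries. WT replicate 3 lay below IL-10-/- replicate 3, so that the groups overlapped. Its log2 fold change was -0.43 (standard error 0.25, 95% interval -1.0 to 0.13, limma adjusted p = 0.63). Il18r1, the ligand-binding chain, was at 5.30, 3.02 and 2.76 FPKM in the IL-10-/- libraries, against 1.90, 2.07 and 2.17 FPKM in the WT libraries (log2 fold change 0.59, limma adjusted p = 0.37). Il18rap was thus above Il18r1 in every library, by 2.32 to 6.86 times in the IL-10-/- libraries and by 6.41 to 12.8 times in the WT libraries. Both chains are typical of T cells and NK cells. The 7 T cell markers summed to 50.8 to 114 FPKM in the IL-10-/- libraries and to 36.9 to 53.1 FPKM in the WT libraries, and the 6 NK cell markers to 54.3 to 129 FPKM in the IL-10-/- libraries and to 66.1 to 141 FPKM in the WT libraries, with no marker of either list passing the test. In each group the library with the most Il18rap (IL-10-/- replicate 3 and WT replicate 1) had the lowest NK cell sum (54.3 and 66.1 FPKM). Its T cell sum was the lowest in IL-10-/- (50.8 FPKM) and the middle one in WT (38.8 FPKM). The library with the most Il18r1 (IL-10-/- replicate 1 and WT replicate 3) had the highest NK cell sum (129 and 141 FPKM). It also had the highest T cell sum (114 and 53.1 FPKM). The summed neutrophil markers given above, mostly S100a8 and S100a9, were lower in the IL-10-/- libraries. The part of any of these cells in the levels of Il18rap and Il18r1 was not tested.

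The balance of agonist to inhibitor was compared within each library, where the scaling of the library has little effect. It was formed as the log2(FPKM + 1) of the first gene minus that of the second and compared with exact two-sided permutation tests, adjusted by Benjamini-Hochberg over 6 ratios. The ratio Il1b/Il1rn in FPKM was 16.5, 18.3 and 13.7 in the IL-10-/- libraries, against 13.5, 27.6 and 11.4 in the WT libraries. The log2 difference was -0.03 (exact permutation p = 1), with WT replicates on both sides of the IL-10-/- libraries. The ratio Il1a/Il1rn was 0.972, 2.11 and 0.245 in the IL-10-/- libraries, against 0.803, 2.10 and 0.470 in the WT libraries (log2 difference -0.20, exact permutation p = 0.9). Against the decoy receptor, Il1b/Il1r2 was 4.21, 1.62 and 2.0 in the IL-10-/- libraries and 1.36, 2.39 and 1.39 in the WT libraries (log2 difference 0.53, exact permutation p = 0.5). IL-10-/- replicate 1, the library with the least Il1r2, had the highest value of the 6. The ratio Il1a/Il1r2 was 0.249, 0.188 and 0.0359 in the IL-10-/- libraries, against 0.0809, 0.182 and 0.0575 in the WT libraries (log2 difference 0.36, exact permutation p = 0.8). Summed as Il1a + Il1b over Il1rn + Il1r2, the FPKM ratio ran from 1.66 to 3.55 in the IL-10-/- libraries and from 1.29 to 2.36 in the WT libraries, so that cytokine transcript exceeded inhibitor transcript per length in all 6 libraries and the groups overlapped.

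For the receptors, Il1r1/Il1r2 was 0.00269, 0.00124 and 0.00210 in the IL-10-/- libraries, against 0.00113, 6.4e-04 and 0.00134 in the WT libraries. On the log2(FPKM + 1) scale, where Il1r1 adds little, the groups were apart with a log2 difference of 0.95 (exact permutation p = 0.1, adjusted p = 0.6 over the 6 ratios), while the ratios of the FPKM themselves overlapped. For IL-18 the inhibitor exceeded the cytokine in every library. Il18/Il18bp was 0.391, 0.319 and 0.469 in the IL-10-/- libraries, against 0.727, 0.444 and 0.375 in the WT libraries. The groups overlapped, with a log2 difference of -0.36 (exact permutation p = 0.5). None of the 6 ratios could reach p under 0.1 with 3 against 3, and the adjusted p of the other 5 ratios was 1.

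**Figure D3:**
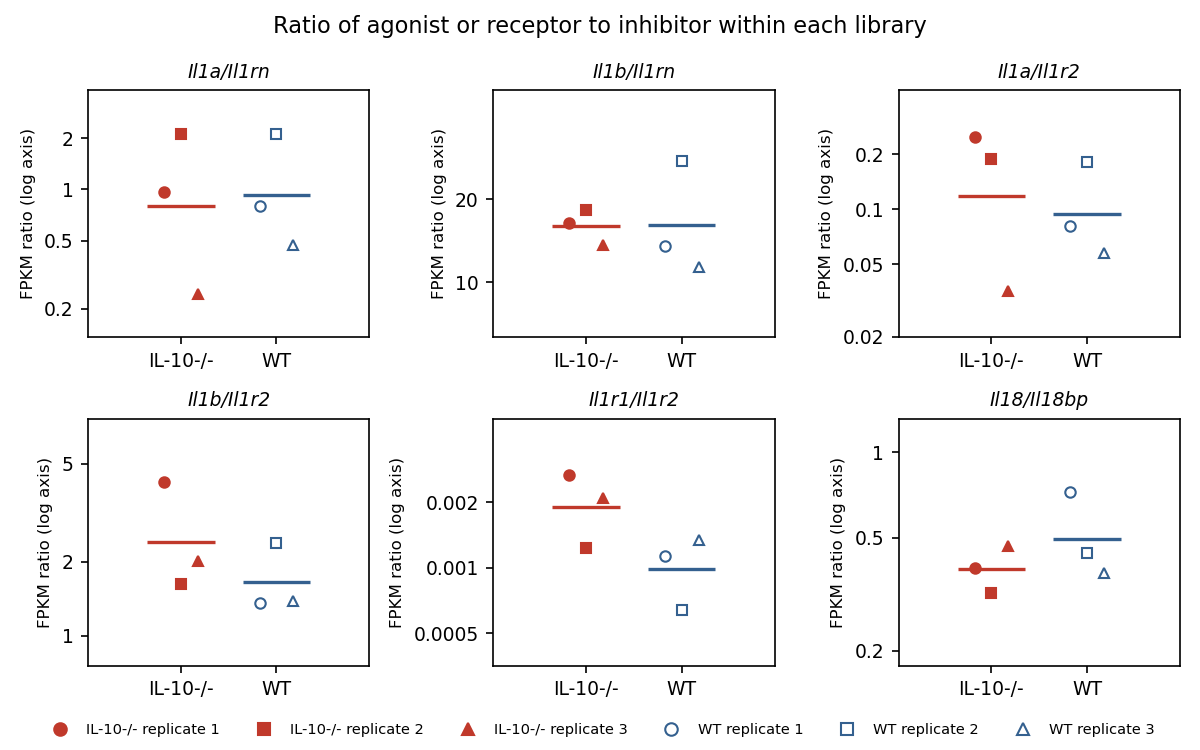
FPKM ratio of each cytokine or receptor gene to its inhibitor within each library, on log axes that differ between panels, with IL-10-/- libraries as filled red and WT libraries as open blue symbols and a line at the geometric mean of each group. In all 6 panels the FPKM ratios of the groups overlap.

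The other genes of these pathways were counted from 6 lists. Over all genes tested, 0.608% rose, 0.482% fell, 10.8% had an unadjusted p under 0.05 and the median log2 fold change was -0.00. Of 13 tested genes of precursor cleavage and release, 1 rose and none fell, and 2 had an unadjusted p under 0.05. The log2 fold changes of 12 lay above 0, and the median was 0.27. The 1 that rose was Casp4, which encodes the caspase-11 of mice that senses cytosolic LPS. It was at 76.3, 80.7 and 69.8 FPKM in the IL-10-/- libraries, against 39.4, 46.3 and 35.3 FPKM in the WT libraries (log2 fold change 0.90, standard error 0.15, limma adjusted p = 0.034). All IL-10-/- libraries lay above all WT libraries, but the adjusted p ran from 0.054 to 0.18 when any 1 library was left out. The call was thus lost in each of these fits, which hold fewer libraries, while the log2 fold change ran from 0.806 to 0.997. Casp1, the IL-1β and IL-18 converting enzyme, was chosen after its values were seen. It was at 115, 110 and 89.6 FPKM in the IL-10-/- libraries, against 49.9, 65.3 and 53.9 FPKM in the WT libraries (log2 fold change 0.88, limma adjusted p = 0.051). The inflammasome sensor gene Nlrp3, also chosen after its values were seen, was at 48.6 to 55.9 FPKM in the IL-10-/- libraries and at 51.1 to 78.9 FPKM in the WT libraries (log2 fold change -0.31, limma adjusted p = 0.64).

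Of the other IL-1 family ligands, 4 of the 10 symbols listed were matched and 1 could be tested. This was Il1f9, the gene of IL-36γ, whose receptor shares IL1RAP, and it fell. It was at 1.81, 0.561 and 3.32 FPKM in the IL-10-/- libraries, against 8.29, 9.48 and 9.18 FPKM in the WT libraries (log2 fold change -1.90, standard error 0.33, limma adjusted p = 0.042). The WT libraries were close together and all IL-10-/- libraries lay below them. The adjusted p was under 0.05 in 2 of 6 fits with 1 library left out, those without IL-10-/- replicate 2 and without IL-10-/- replicate 3, and ran from 0.014 to 0.18. The summed neutrophil markers, mostly S100a8 and S100a9, were lower in the same libraries, and the part of neutrophils was not tested. Il33, not tested for its low level and named after its values were seen, was at 0.265 to 0.381 FPKM in the IL-10-/- libraries and at 0.422 to 1.22 FPKM in the WT libraries. None of 3 tested genes among the other receptors passed, while 2 had an unadjusted p under 0.05 (Il1rl2 and Il18r1). Il1rl2, the IL-36 receptor gene, was at 0.944, 1.36 and 1.84 FPKM in the IL-10-/- libraries, against 3.43, 2.17 and 2.17 FPKM in the WT libraries (log2 fold change -0.59, limma adjusted p = 0.36).

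None of 18 tested genes of receptor signaling, from Myd88 to the NF-kB kinases, passed the test, 1 had an unadjusted p under 0.05, and their median log2 fold change was -0.09. Those with the smallest p were Tab3 (log2 fold change -0.50, limma adjusted p = 0.22) and Tab1 (-0.36, adjusted p = 0.59), adaptors of the kinase TAK1. Of 16 tested genes that IL-1 induces, 2 fell and none rose, against 0.482% and 0.608% of all genes tested. An unadjusted p under 0.05 was found for 6 of the 16, against 10.8% of all genes tested. Of these 6, Icam1, named after its values were seen, was higher in IL-10-/- (log2 fold change 0.67, limma adjusted p = 0.14), and the others were lower. The log2 fold changes of 12 of the 16 lay below 0 and those of 4 above 0, with a median of -0.38. Cxcl3, a chemokine gene for neutrophils, was at 91.3, 47.0 and 92.2 FPKM in the IL-10-/- libraries, against 646, 446 and 334 FPKM in the WT libraries (log2 fold change -2.63, limma adjusted p = 0.011), and kept an adjusted p under 0.05 whichever library was left out. Lcn2, an iron-binding protein gene that also stands in the neutrophil list, was at 67.5, 99.2 and 69.4 FPKM in the IL-10-/- libraries, against 231, 201 and 150 FPKM in the WT libraries (log2 fold change -1.29, limma adjusted p = 0.036). Its adjusted p ran from 0.046 to 0.15 when 1 library was left out and was under 0.05 only without IL-10-/- replicate 2. With no filter on low values the adjusted p was 0.14 for Casp4, 0.26 for Il1f9, 0.14 for Cxcl3 and 0.21 for Lcn2. It was 0.095 for Il1f9 with a pseudocount of 0.1 and 0.056 for Lcn2 with libraries scaled to equal sums. Without WT replicate 1 and IL-10-/- replicate 3 together, a choice made after seeing the data, it was 0.052 for Casp4 and 0.087 for Lcn2. None of 8 tested genes that IL-18 and IL-12 induce passed, 2 had an unadjusted p under 0.05, with a median log2 fold change of -0.15. Ccl3, a chemokine gene, and Il18r1, given above, had the smallest p, and Ccl3 stood at -0.64 in log2 units (limma adjusted p = 0.42). Ifng, chosen after its values were seen, was at 14.3, 1.82 and 3.03 FPKM in the IL-10-/- libraries, against 1.41, 3.59 and 3.72 FPKM in the WT libraries, so that 1 library stood out and the groups overlapped.

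**Figure D4:**
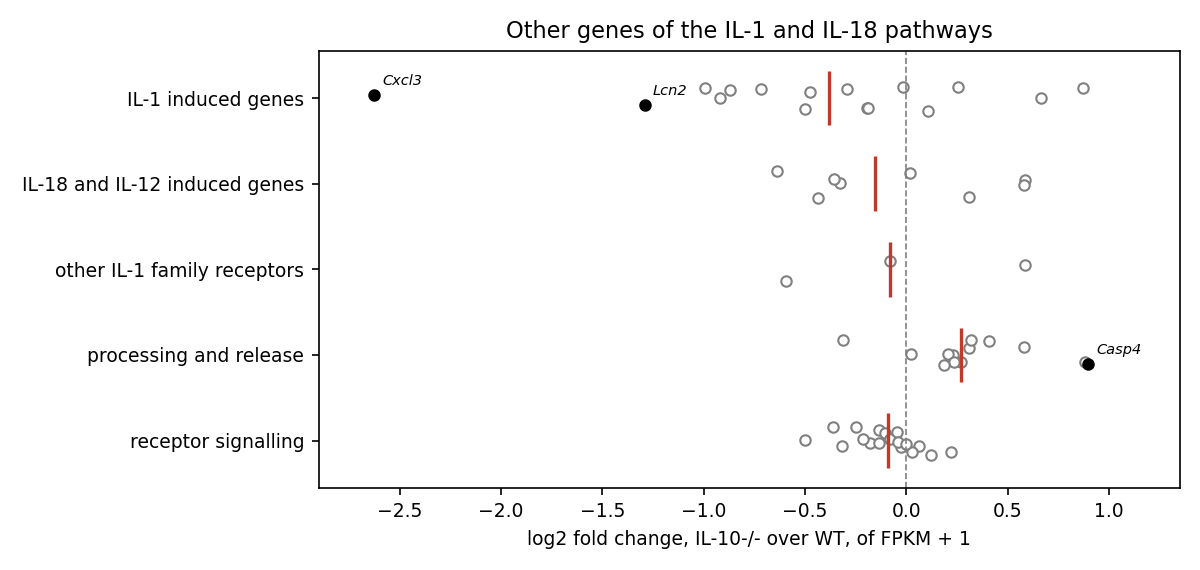
Log2 fold changes, IL-10-/- over WT, of FPKM + 1, for the tested genes of 5 pathway lists (points), filled where the adjusted p from limma was under 0.05, with a red line at the median of each list. Casp4 is the filled point above 0 and Cxcl3 and Lcn2 those below 0, and the median lies above 0 only for cleavage and release (0.27).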

How the data were processed

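The authors deposited 1 table of FPKM per gene and library, made from poly(A) RNA (NEBNext Ultra kit, paired ends of a HiSeq sequencer) on the build GRCm38 named in the submitters' processing notes. For aligner, counting tool, annotation and strand, details were not given in the sources used here. Deposited fold changes, p-values and marks of the authors' own comparison were not used. FPKM keeps no read totals. Among genes under 0.3 FPKM the ratio to WT replicate 1 had a common step, shared by 8.55% to 11.9% of 2206 to 2359 genes, by which 1 fragment was worth 0.694 to 1.01 times its value there. Absolute depth is unknown, and no counting interval is given.

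Groups and replicate numbers came from the labels. For the 11838 genes reaching 1 FPKM in 3 or more libraries, log2(FPKM + 1) was fitted by group with limma 3.58.1 (R 4.3.3, intensity trend), and p-values were adjusted by Benjamini-Hochberg. Rose and fell mean an adjusted p under 0.05. The code was tested on simulated data. Ratios, motifs, figures and summaries were computed in Python 3.11.15. The 9 genes, the 6 pathway lists and the 11 marker lists were chosen with earlier results of these data known. Named were the 9 genes and, from each list, the genes with an adjusted p under 0.05 or else the 2 with the smallest p, with genes outside this rule marked, but for Il10 (marker lists in which none passed are given by their sums). Strand, exons and overlaps came from GENCODE M21 (same build).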

Additional observations from a re-analysis of the deposited data

How the results depend on the processing

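The alternatives changed the pseudocount (0.1), the filter (none, or 5 FPKM), the scaling (quantiles, or an equal sum in each library), the variance trend (none), the weights (array weights), the model (a replicate block), the libraries (each left out) and the threshold (that of the study). Leaving out WT replicate 1 and IL-10-/- replicate 3 together, and the study's thresholds on the ratio of mean FPKM, were chosen after seeing the data. Of the 9 genes, 0 were called in all of these but array weights, which called 2 (Il1rap with a log2 fold change of -0.89 and Il18bp with 0.95), and the ratio of mean FPKM, which called 1 (Il1rap). Of all genes tested, 129 were called, against 32 without a filter, 482 with array weights, 61 with the replicate block, 281 without the 2 libraries named above, 258 at the study's thresholds, 407 with these on the ratio of mean FPKM, and 40 to 140 with 1 library left out. The cause was not tested. The sign of the log2 fold change turned for Il1a alone among the 8 tested genes (-1.08 to 0.051 with 1 library left out, above 0 without IL-10-/- replicate 3). With 1 library left out, the log2 difference ran from -0.88 to 0.60 for Il1a/Il1rn (0.37 without WT replicate 2 and 0.60 without IL-10-/- replicate 3), from -0.28 to 0.36 for Il1b/Il1rn (0.36 without WT replicate 2 and 0.08 without IL-10-/- replicate 3) and from -0.16 (without IL-10-/- replicate 1) to 1.18 for Il1a/Il1r2. Same-numbered libraries deviated from their group means with correlations across genes of 0.086, 0.20 and 0.090, and every library correlated best with its own number. The other pairs ran from -0.17 to 0.054. These correlations are low, and deviations from a mean of 3 libraries are tied to each other, so that they do not show a pairing. With the replicate block the limma adjusted p was 0.068 for Casp4, 0.068 for Lcn2, 0.081 for Il1f9 and 0.034 for Cxcl3. Low values are the least precise, foremost those of Il1r1.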

Other observations

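Il1a varied more between replicate numbers than between groups. In both groups replicate 2 was the highest (46.1 FPKM in IL-10-/- and 77.0 FPKM in WT), then replicate 1 (30.0 FPKM in IL-10-/- and 33.4 FPKM in WT), then replicate 3 (9.06 FPKM in IL-10-/- and 17.7 FPKM in WT), and the IL-10-/- library was the lower of each same-numbered pair. With the replicate number as a block the log2 fold change of Il1a was -0.59 with a standard error of 0.19, against 0.64 without the block (adjusted p = 0.32 and 0.85 from limma). Il18, Casp4 and Nfkbiz, an NF-kB regulator gene, had the same order of replicates in both groups. Of the 65 tested pathway genes and members, 13 had the same order of replicates in both groups. This is near the share of all genes tested, 19.0%, so that a shared order is not particular to these genes. Other genes that IL-1 induces were spread as widely. Il6 was at 21.2, 41.8 and 6.72 FPKM in the IL-10-/- libraries, against 8.05, 31.2 and 13.8 FPKM in the WT libraries, and Cxcl1 was at 106, 210 and 36.3 FPKM in the IL-10-/- libraries, against 91.4, 348 and 116 FPKM in the WT libraries, with replicate 2 the highest in each group. The choice of these genes was made with their values in view, and the labels do not say what a replicate number shares.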
